A study of Mus musculus with 9 samples.

Results

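The 56 genes described here carry out mitosis: they encode the kinases, checkpoint proteins, kinetochore and spindle parts, condensins and regulators with which a cell separates its chromosomes and divides. They were chosen by name as a functional set, and all 56 are among the 24054 genes listed for each library. All 56 also passed the filter on low counts, which kept 14452 genes, and no member had fewer than 41 counted reads in any library.

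The libraries were made by mRNA sequencing of splenic type 2 dendritic cells, the antigen-presenting cells that mainly engage CD4+ T cells. All mice were C57BL/6 and carried Cre on both alleles of Clec9a together with the Rosa-tdTomato reporter on both alleles (Clec9a-Cre/Cre Rosa-tdTomato/tdTomato), so that TOMATO (TOM) marks a cell whose ancestry expressed Clec9a, a gene active in committed dendritic cell progenitors. Sorted cells were live single cells without autofluorescence that were MHCII+ CD11c+ CD11b+. The 3 groups of 3 libraries each were TOM+ cDC2 from mice at postnatal day 8, TOM- DC2 from mice of the same age, and TOM+ cDC2 from adult mice, which were 9 weeks old in library 91 and 8 weeks old in libraries 92 and 95. Young spleens were pooled before the sort, no adult TOM- group was analysed here, and libraries are named by the number in their deposited names (81, 91 and 92 at 8 days). What that number stands for is not given in the sources used here, and p-values measure the spread between these libraries.

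Mitosis begins when CDK1, bound to cyclin A or B, is activated by CDC25 phosphatases. Chromosomes are condensed, kinetochores attach them to spindle microtubules, and the spindle assembly checkpoint holds back the anaphase-promoting complex until each is attached, after which securin and cyclin B are destroyed and the cell divides. Most of these genes are transcribed late in the cell cycle, when the DREAM repressor leaves their promoters and the B-MYB (Mybl2) and FOXM1 activators take over, largely through the cell cycle homology region (CHR) and CCAAT boxes. In the dendritic cell lineage, dividing precursors and a minority of differentiated cells express them.

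The promoters of a few members are shown because these elements are known from the promoters of mitotic genes, and the rule that chose the members used no sequence. A 300-base window, 250 bases before to 50 after a RefSeq start site on GRCm38.p6, was given for 47 of the 56 members. A CHR (TTTGAA or TTTAAA, either strand) was present in 36 of these 47 genes (76.6%), against 22.5% of the 10695 tested genes with a window. Within 50 bases of the start site the shares were 68.1% and 6.14%. A CCAAT box on either strand was present in 35 members (74.5%, against 42.6%), at least 2 boxes in 48.9% (against 15.9%), and a CHR together with a CCAAT box in 30 (63.8%, against 9.1%). An E2F site (TTTCCCGC or TTTGGCGC, either strand) was present in 4 members (8.51%, against 3.29%). These are matches of letters, not measured binding.

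The stretches below run from 120 bases before to 25 bases after the start site, 5′ to 3′ on the gene's strand, with CHR and CCAAT matches in capitals (on the opposite strand the reverse complements are in capitals). The first 4 are the most abundant members that have both elements, and Pttg1 is added, after its values were seen, because it is the member with a higher level in adults.
Bub3, chr7:131560250-131560394, plus strand: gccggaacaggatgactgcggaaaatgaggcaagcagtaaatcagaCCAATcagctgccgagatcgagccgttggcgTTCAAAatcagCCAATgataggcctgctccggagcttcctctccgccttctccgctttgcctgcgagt
Ube2c, chr2:164769809-164769953, plus strand: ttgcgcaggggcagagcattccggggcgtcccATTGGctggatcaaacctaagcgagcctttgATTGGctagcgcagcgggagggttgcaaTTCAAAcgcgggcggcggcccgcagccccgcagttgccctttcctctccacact
Ccnb2, chr9:70421530-70421674, minus strand: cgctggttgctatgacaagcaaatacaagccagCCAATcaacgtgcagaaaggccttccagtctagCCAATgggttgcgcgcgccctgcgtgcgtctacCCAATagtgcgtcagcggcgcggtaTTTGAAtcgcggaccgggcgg
Cenpa, chr5:30666766-30666910, plus strand: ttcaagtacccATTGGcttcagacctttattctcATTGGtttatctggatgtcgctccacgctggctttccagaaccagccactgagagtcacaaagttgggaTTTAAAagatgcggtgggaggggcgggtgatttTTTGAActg
Pttg1, chr11:43425957-43426101, minus strand: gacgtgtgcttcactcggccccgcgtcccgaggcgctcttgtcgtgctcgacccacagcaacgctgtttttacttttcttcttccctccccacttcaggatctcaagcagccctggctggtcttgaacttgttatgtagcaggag

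In Ccnb2 the 3 CCAAT boxes start at positions -87, -54 and -21 and a CHR at position 5, just past the start site. Another Ccnb2 CHR lies at -167, outside the printed stretch. In Ube2c the CHR lies at -29, downstream of boxes at -88 and -57, and in Bub3 it lies at -43 between boxes at -74 and -32. Bub3 has another RefSeq start site, from which the same CHR lies at -167 and the boxes at -198 and -156. Pttg1 has no match to any of the 3 motifs in its whole 300-base window, and neither do Mad2l1, Mybl2, Ncaph, Nuf2 and Nusap1, all of which had higher levels at 8 days. The Pttg1 window, chr11:43425932-43426231, follows a RefSeq start site. In GENCODE M21 the 5′ end of Pttg1 is at 43426251, upstream of this window. Sequence before that end was not searched, so the absence of matches holds for the window only. The 9 members without a window are Ccna2, Cdc25c, Aurkb, Incenp, Spc24, Tpx2, Kif20a, Smc4 and Foxm1.

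Each library held 12783252 to 22809401 reads assigned to genes. The 15 cDC2 marker genes were expressed in all groups, with a summed level of 70500 to 78800 TPM (a level scaled for gene length and library total) at 8 days and 112000 to 115000 TPM in adults. Most of that sum was the MHC class II genes Cd74, H2-Ab1 and H2-Aa, which were higher in adults. Itgam, Sirpa and Clec10a had higher means in both young groups. The adult mean of Zbtb46 lay between those of the young groups, and the remaining cDC2 markers had higher means in adults. Of 10 erythroid markers, 5 were at 0 in every adult library, and their summed level was 82.6 to 129 TPM in young TOM+ cDC2, 80.6 to 1220 TPM in young TOM- DC2, with the highest value in library 81, and 23.2 to 30.8 TPM in adults. Granulocyte markers likewise reached 38.8 TPM in TOM- DC2 library 81 and at most 2.08 TPM elsewhere. The 8 haematopoietic progenitor markers summed to 336 to 462 TPM at 8 days and 492 to 635 TPM in adults. Most of that sum was Kit and Flt3, and Flt3 is also among the cDC2 markers. Cd34, Myb and Meis1 had higher means in both young groups, and the other progenitor markers averaged 0.927 TPM or less. The 7 B cell markers summed to 61.3 to 81.5 TPM at 8 days and 41.1 to 53.8 TPM in adults. Most of this was Cd79b, whereas Ms4a1 was higher in adults (means of 2.46, 7.8 and 16.9 TPM in young TOM+, young TOM- and adult cells). Monocyte markers summed to 2050 to 2640 TPM at 8 days and 3200 to 4190 TPM in adults. Most of that sum was Nr4a1, with means of 2080, 2080 and 3540 TPM in young TOM+, young TOM- and adult cells. Ccr2, Csf1r and Cx3cr1 had higher means in both young groups, and the other monocyte markers averaged 1.22 TPM or less. Macrophage markers summed to 363 to 538 TPM at 8 days and 264 to 329 TPM in adults, and plasmacytoid dendritic cell markers to 105 to 116 TPM and 122 to 165 TPM. Esam, which marks a subset of splenic cDC2, averaged 19.0 TPM in young TOM+, 28.4 TPM in young TOM- and 80.0 TPM in adult cells. The part of these other cells and subsets in the results below was not tested, but the comparison of TOM- DC2 with adults is also given without TOM- DC2 library 81.

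All 56 mitosis genes differed with age in TOM+ cDC2, and 55 of them were higher at 8 days. Together they made up 3280, 3360 and 3760 TPM in the young TOM+ libraries 81, 91 and 92, and 1320, 1600 and 1190 TPM in the adult libraries 91, 92 and 95. Young TOM- DC2 lay with the young TOM+ cells, at 3090, 3130 and 3490 TPM in libraries 81, 91 and 92. The group means were 3470 ± 255, 1370 ± 210 and 3240 ± 222 TPM (SD, n = 3 each), so that the summed level was 2.53-fold higher in young TOM+ cDC2 and 2.36-fold higher in young TOM- DC2 than in adult cells. The fits below use counts with TMM normalization, which these TPM sums do not have. In bulk libraries, more dividing cells and more of these transcripts per dividing cell cannot be told apart.

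**Figure D1:**
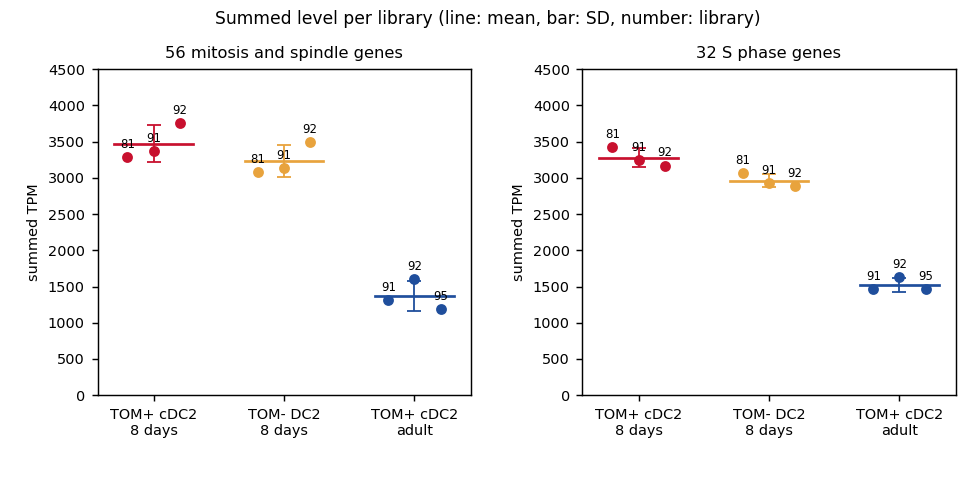
Summed TPM of the 56 mitosis and spindle genes (left) and of 32 S phase genes (right) in each library, with the group mean (line), SD (bar) and library number beside each point. All 6 young libraries lie above all 3 adult libraries in both panels, and library 92 is the highest of its group for the mitosis genes in each of the 3 groups.

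Tested gene by gene with edgeR, all 56 members passed an adjusted p (padj) of 0.05 between young and adult TOM+ cDC2: 55 were higher at 8 days, where 21.0% of all tested genes passed in that direction, and 1 was higher in adults, against 19.5% of all tested genes. A log2FC above 1 as well as the padj was met by 52 members (92.9%), against 5.96% of all tested genes. The median log2FC of the members was 1.44, beside 0.05 for all tested genes. In TPM, the 3 young libraries lay above the 3 adult libraries for 55 members, against 34.7% of all tested genes. They lay below the adults for 17.4% of all tested genes, so TPM were tilted toward the young libraries. With counts scaled to library size after TMM normalization, these shares were 27.1% and 24.0%, and again 55 members were higher. The difference was over 3-fold for 12 members, 2-fold to 3-fold for 40 and smaller for Espl1, Smc4 and Bub3.

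The same members were higher in young TOM- DC2 when these were set against the adult TOM+ cDC2, which serve both comparisons. Here 54 members passed the padj with a higher level at 8 days (19.4% of all tested genes), 1 with a higher adult level (16.9%), and 46 also met the log2FC of 1 (6.5%). The median log2FC was 1.28, beside 0.07 for all tested genes, and the groups did not overlap in TPM, with the young libraries higher, for 55 members (36.4% of all tested genes). They were separated the other way for 13.7% of all tested genes. With TMM-normalized counts these shares were 26.1% and 21.5%, and again 55 members were higher. Bub3 was the member that did not pass (log2FC 0.22 ± 0.09 SE, edgeR adjusted p = 0.064). Without TOM- DC2 library 81, which held the erythroid and granulocyte transcripts, 54 members passed and 49 met the log2FC of 1.

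**Figure D2:**
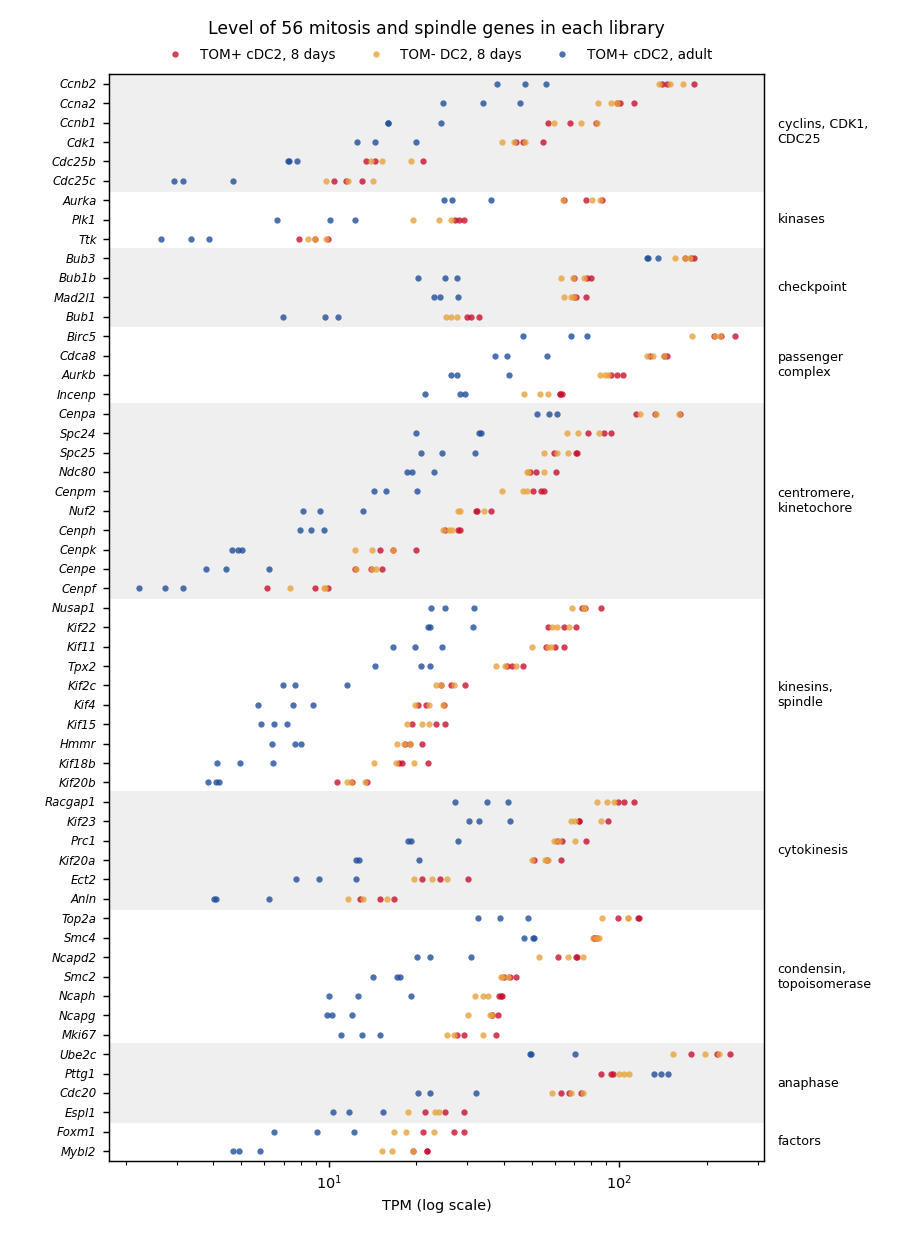
TPM on a log scale of each of the 56 genes in each of the 9 libraries, in rows ordered by role and then by mean level. For 55 genes the adult points lie to the left of all young points, and for Pttg1 they lie to the right.

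**Figure D3:**
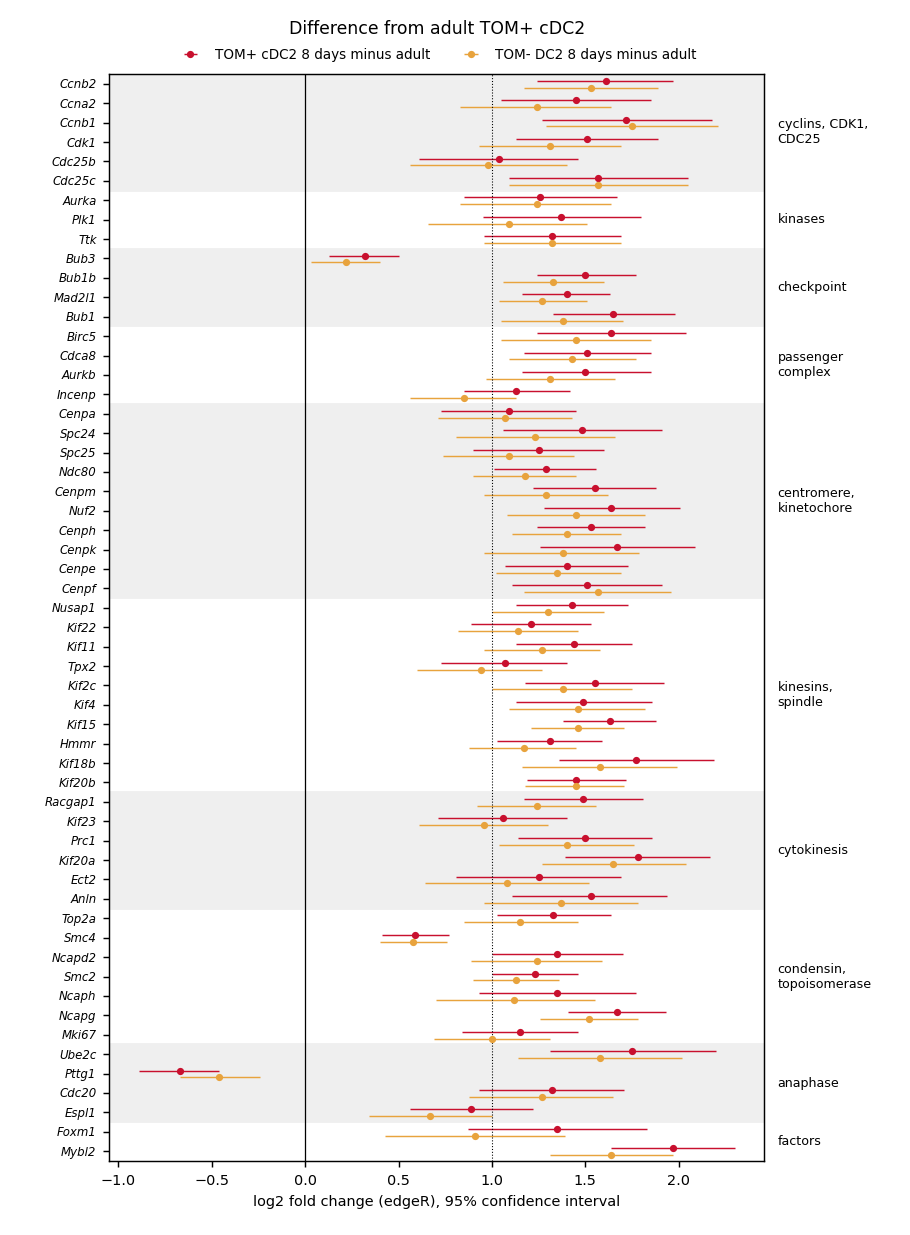
log2 fold change of each gene against adult TOM+ cDC2 with its 95% confidence interval derived from the edgeR fit, for young TOM+ cDC2 (red) and young TOM- DC2 (orange), with a dotted line at a log2FC of 1. Most genes lie between 1 and 2, and Bub3, Smc4 and Espl1 lie between 0 and 1 in both comparisons. Cdc25b, Incenp, Tpx2, Kif23 and Foxm1 do so in TOM- DC2, where Mki67 lies at the dotted line. Pttg1 lies below 0 in both comparisons.

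In the roles below, the largest and smallest differences are those between young and adult TOM+ cDC2. Of the cyclins, CDK1 and its activating phosphatases, all 6 members were higher at 8 days, with log2FC from 1.04 to 1.72 in TOM+ cDC2. Ccnb2, a B-type cyclin and the most abundant of them, was at 140.3, 146 and 181 TPM in young TOM+ cDC2 libraries 81, 91 and 92, at 137, 149.8 and 165 TPM in young TOM- DC2, and at 47.2, 55.8 and 38.0 TPM in adult libraries 91, 92 and 95. Both young groups lay above the adult group and overlapped each other, and library 92 was the highest of each group (young TOM+ against adult log2FC 1.61 ± 0.17 SE, edgeR adjusted p = 1.5e-05). Ccnb1, the other main mitotic cyclin, had the largest difference of the role: 56.6, 67.4 and 83.2 TPM in young TOM+, 59.7, 73.8 and 83.5 TPM in young TOM-, and 16.0, 24.3 and 16.0 TPM in adult libraries (log2FC 1.72 ± 0.21 SE, edgeR adjusted p = 4.7e-05). Its fitted level was close to equal in TOM+ and TOM- cells (log2FC -0.03 ± 0.19 SE, edgeR adjusted p = 1.0). Cdk1, the kinase itself, averaged 48.5 ± 5.44, 43.4 ± 3.93 and 15.6 ± 3.82 TPM in young TOM+, young TOM- and adult cells, and Ccna2, cyclin A2, 104 ± 7.63, 92 ± 7.18 and 34.7 ± 10.4 TPM (SD, n = 3). The phosphatases Cdc25b and Cdc25c were at lower levels, with log2FC of 1.04 and 1.57.

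The other mitotic kinases were also higher at 8 days. Aurka, the Aurora kinase of spindle poles, was at 64.5, 76.9 and 87.1 TPM in young TOM+, 64.2, 80.6 and 85.8 TPM in young TOM-, and 26.5, 36.0 and 25.01 TPM in adult libraries. The young groups overlapped, and both lay above the adults (log2FC 1.26 ± 0.19 SE, edgeR adjusted p = 0.0002). Plk1, the Polo-like kinase that acts from mitotic entry to cytokinesis, was at 28.1, 27.2 and 29.15 TPM in young TOM+, 24.0, 19.5 and 26.3 TPM in young TOM-, and 10.1, 12.3 and 6.62 TPM in adult libraries. Its TOM+ libraries all lay above its TOM- libraries, unlike those of Aurka, but the difference did not pass the test (log2FC 0.29 ± 0.18 SE, edgeR adjusted p = 0.74). Ttk, the kinase that starts checkpoint signalling, had an age log2FC of 1.32 and equal fitted levels in the young groups (log2FC 0.00 ± 0.15 SE).

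The 4 genes of the spindle assembly checkpoint were all higher at 8 days, among them Bub1, Bub1b and Mad2l1, with log2FC of 1.65, 1.5 and 1.40, and Bub3, with 0.32. Bub1, a checkpoint kinase, was at 29.9, 30.9 and 32.8 TPM in young TOM+, 26.4, 25.2 and 27.7 TPM in young TOM-, and 9.69, 10.8 and 6.94 TPM in adult libraries, with no overlap between any of the 3 groups. Bub3, the WD-repeat partner of BUB1 and BUBR1 (Bub1b), was at 177, 168 and 181 TPM in young TOM+, 168, 156 and 176 TPM in young TOM-, and 124, 136 and 126 TPM in adult libraries. Its young and adult libraries did not overlap either, but its adult level was 129 ± 6.28 TPM where those of Bub1b and Mad2l1 were 24.3 ± 3.67 and 25 ± 2.51 TPM (SD, n = 3). Bub3 was thus the third most abundant member in young TOM+ cDC2 and the second in adults, and its age difference (log2FC 0.32 ± 0.09 SE, edgeR adjusted p = 0.011) no longer passed without young TOM+ library 92 (log2FC 0.25, edgeR adjusted p = 0.062).

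The chromosomal passenger complex corrects faulty attachments and later works at the spindle midzone, and its 4 genes were higher at 8 days. Birc5, survivin, was the most abundant member of all 56 in both young groups: 213, 225 and 249 TPM in young TOM+, 179, 213 and 223 TPM in young TOM-, and 68.0, 77.4 and 46.8 TPM in adult libraries. The young groups overlapped and lay above the adults (log2FC 1.64 ± 0.18 SE, edgeR adjusted p = 2.5e-05). The kinase Aurkb (log2FC 1.5) and the targeting subunit Cdca8, borealin (1.51), were close behind. The scaffold Incenp had the smallest difference (log2FC 1.13 ± 0.13 SE), and its young TOM+ level of 62.8 ± 0.542 TPM was above the TOM- level of 52.3 ± 5.01 TPM in all libraries (SD, n = 3).

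All 10 centromere and kinetochore genes passed with log2FC from 1.09 to 1.67 in TOM+ cDC2 and from 1.07 to 1.57 in TOM- DC2. Cenpa, the histone H3 variant that marks centromeres, had the highest level and the smallest difference: 114, 133 and 162 TPM in young TOM+, 118, 134 and 160.0 TPM in young TOM-, and 51.9, 57.1 and 60.8 TPM in adult libraries (log2FC 1.09 ± 0.16 SE, edgeR adjusted p = 0.00022). Among adults it was highest in library 95, in which 41 of the 56 members were lowest. Cenpk, a subunit of the constitutive centromere network, had the largest difference of the role, at 16.6, 19.9 and 15.01 TPM in young TOM+, 14.1, 16.6 and 12.3 TPM in young TOM-, and 5.01, 4.88 and 4.65 TPM in adult libraries (log2FC 1.67 ± 0.19 SE, edgeR adjusted p = 2.8e-05). In TOM- DC2 its log2FC of 1.38 lay below those of Cenpf (1.57), Nuf2 (1.45) and Cenph (1.40). The 4 genes of the microtubule-binding NDC80 complex were all higher at 8 days, with log2FC of 1.29 for Ndc80, 1.64 for Nuf2, 1.48 for Spc24 and 1.25 for Spc25. Cenph and Cenpm of the centromere network were at 1.53 and 1.55. Cenpe, a kinetochore motor, and Cenpf, a large kinetochore and dynein adaptor protein, were at 1.40 and 1.51, and Cenpf was the least abundant member in each group (8.35 ± 1.98, 8.90 ± 1.34 and 2.70 ± 0.466 TPM in young TOM+, young TOM- and adult cells).

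The 10 kinesins and spindle microtubule proteins were all higher at 8 days, by log2FC from 1.07 (Tpx2, which activates Aurora A on spindle microtubules) to 1.77 (Kif18b). Kif18b, a kinesin that trims microtubule plus ends, was at 17.4, 17.9 and 22.03 TPM in young TOM+, 17.0, 14.3 and 19.65 TPM in young TOM-, and 4.94, 6.40 and 4.12 TPM in adult libraries (log2FC 1.77 ± 0.19 SE, edgeR adjusted p = 1.8e-05). Nusap1, a microtubule bundling protein and the most abundant of the role, was at 76.2, 74.5 and 86.4 TPM in young TOM+, 75.8, 68.6 and 75.8 TPM in young TOM-, and 25.2, 31.5 and 22.4 TPM in adult libraries (log2FC 1.43 ± 0.14 SE). In both genes the young groups overlapped and the adults stood apart. Kif11 and Kif15, the motors that push spindle poles apart, had log2FC of 1.44 and 1.63, the microtubule depolymerase Kif2c 1.55, the chromosome-arm motors Kif4 and Kif22 1.49 and 1.21, the midzone kinesin Kif20b 1.45, and the spindle-associated hyaluronan receptor Hmmr 1.31. Kif15 had the smallest padj of all members (edgeR adjusted p = 9.8e-07).

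The 6 genes of the central spindle and cytokinesis had log2FC from 1.06 to 1.78. Kif20a, a midzone kinesin needed for abscission, was at 56.2, 50.9 and 63.15 TPM in young TOM+, 55.5, 50.01 and 57.0 TPM in young TOM-, and 12.7, 20.5 and 12.4 TPM in adult libraries (log2FC 1.78 ± 0.18 SE, edgeR adjusted p = 1.1e-05). Racgap1, a centralspindlin subunit, was at 99.1, 104 and 113 TPM in young TOM+, 90.35, 83.7 and 96.2 TPM in young TOM-, and 34.9, 41.5 and 27.3 TPM in adult libraries (log2FC 1.49 ± 0.15 SE, edgeR adjusted p = 1e-05). The young groups of Racgap1 did not overlap in TPM and did overlap when scaled as CPM (counts scaled to the library size after TMM normalization, not to gene length). Kif23, the motor subunit of centralspindlin, had the smallest difference of the role (1.06), and the microtubule bundler Prc1, the contractile ring protein Anln and the RhoA activator Ect2 had log2FC of 1.5, 1.53 and 1.25.

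The 7 genes of condensin, topoisomerase and the chromosome periphery were all higher at 8 days. Top2a, the topoisomerase that untangles sister chromatids, was at 117, 98.9 and 116 TPM in young TOM+, 107, 87.2 and 107 TPM in young TOM-, and 38.9, 48.3 and 32.7 TPM in adult libraries (log2FC 1.33 ± 0.14 SE, edgeR adjusted p = 1.6e-05). Ncapg, a subunit found only in condensin I, had the largest difference: 36.5, 36.4 and 38.3 TPM in young TOM+, 36.0, 30.1 and 36.5 TPM in young TOM-, and 10.3, 12.1 and 9.89 TPM in adult libraries (log2FC 1.67 ± 0.12 SE, edgeR adjusted p = 1e-06). The other condensin I subunits Ncapd2 and Ncaph were at 1.35 each. Of the SMC cores that both condensins share, Smc2 was at 1.23 and Smc4 at 0.59 ± 0.08 SE, with an adult Smc4 level of 49.5 ± 2.04 TPM against 16.3 ± 1.83 TPM for Smc2 (SD, n = 3). Mki67, the Ki-67 protein that coats mitotic chromosomes and is used as a stain for cycling cells, averaged 31.5 ± 5.38 TPM in young TOM+, 28.8 ± 4.49 TPM in young TOM- and 13.0 ± 2.0 TPM in adult cells (log2FC 1.15 ± 0.14 SE).

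Of the 4 genes around anaphase, 3 were higher at 8 days and 1 in adults. Ube2c, a ubiquitin-conjugating enzyme of the anaphase-promoting complex, was at 176, 216 and 240.1 TPM in young TOM+, 153, 198 and 221 TPM in young TOM-, and 49.8, 70.3 and 49.2 TPM in adult libraries (log2FC 1.75 ± 0.20 SE, edgeR adjusted p = 3.2e-05). The coactivator Cdc20 had a log2FC of 1.32, and Espl1, separase, the protease that opens cohesin rings, had 0.89. Pttg1, the securin that holds separase inactive until anaphase, was the single member that was higher in adults. It was at 93.5, 86.4 and 94.8 TPM in young TOM+ libraries 81, 91 and 92, at 104, 108 and 100.05 TPM in young TOM- libraries, and at 139, 147 and 132 TPM in adult libraries 91, 92 and 95. The 3 groups did not overlap in TPM, with young TOM+ lowest and adults highest (young TOM+ against adult log2FC -0.67 ± 0.10 SE, edgeR adjusted p = 0.00019, and young TOM- against adult -0.46 ± 0.10 SE, edgeR adjusted p = 0.0032). Between the young groups the Pttg1 difference did not pass the test (log2FC -0.21 ± 0.10 SE, edgeR adjusted p = 0.54), and there the libraries overlapped as CPM. By level, Pttg1 was the most abundant of the 56 genes in adults, where Birc5 ranked 3, and ranked 11 in young TOM+ cDC2, where Birc5 ranked 1. Securin and separase, which bind each other as proteins, had age differences of opposite sign at the mRNA level.

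Both transcription factors were higher at 8 days. Mybl2 (B-MYB) had the largest difference of the 56 genes between young and adult TOM+ cDC2: 21.8, 21.8 and 19.5 TPM in young TOM+, 16.6, 15.2 and 19.4 TPM in young TOM-, and 4.89, 5.79 and 4.68 TPM in adult libraries (log2FC 1.97 ± 0.15 SE, edgeR adjusted p = 1.6e-06, a 3.92-fold difference). The TOM+ libraries lay above the TOM- libraries, if only narrowly, and both above the adults. Foxm1 was at 21.1, 29.2 and 26.9 TPM in young TOM+, 16.8, 18.4 and 22.9 TPM in young TOM-, and 9.08, 12.2 and 6.46 TPM in adult libraries (log2FC 1.35 ± 0.22 SE, edgeR adjusted p = 0.00041). Its young groups overlapped. Against adults, the TOM- cells had a log2FC of 1.64 for Mybl2, below the 1.75 of Ccnb1 and the 1.65 of Kif20a, and 0.91 for Foxm1.

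Most members had their highest level in the same library of a group. Library 92 had the highest level for 41, 43 and 51 of the 56 members in young TOM+, young TOM- and adult cells, and adult library 95 the lowest for 41. As a description over the 9 libraries, which share the age difference, the log2 CPM of 55 members correlated with the mean of the other members at r from 0.921 (Cdc25b) upwards, and that of Pttg1 at -0.841. With the group means removed, r for Pttg1 was 0.727, so that its sign differed within groups and across ages. Cenpk (-0.094) and Mki67 (0.265) followed the other members least within groups.

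Other genes of mitosis were read from lists of function. Of 72 other mitosis genes, 63 passed as higher in young than in adult TOM+ cDC2 (87.5%, against 21.0% of all tested genes) and none passed as lower. The log2FC of 1 was met by 47 (65.3%, against 5.96%), and the median was 1.21. The largest differences were those of the kinetochore genes Ska1 (1.80) and Cenpp (1.79) and of Fam64a (1.75), a mitotic regulator. Of 15 subunits and enzymes of the anaphase-promoting complex, 5 passed as higher (33.3%, against 21.0% of all tested genes), none passed as lower and none met the log2FC of 1 (against 5.96%), with a median of 0.18. The largest differences were 0.57 (Anapc15), 0.55 (Cdc23) and 0.44 (Anapc5). Of 12 genes of cohesin and its regulators, 5 passed as higher at 8 days (41.7%, against 21.0% of all tested genes). They were led by Esco2 (1.44), the acetyltransferase of S phase, Smc3 (0.56) and Rad21 (0.51). Another 3 passed as lower (25%, against 19.5%), namely the loader subunits Nipbl (-0.66) and Mau2 (-0.48) and the acetyltransferase Esco1 (-0.53). Smc1a and Pds5b were the remaining cohesin genes that passed as higher at 8 days.

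The genes of DNA replication act earlier in the cell cycle. Of 32 S phase genes, 31 passed as higher in young than in adult TOM+ cDC2 (96.9%, against 21.0% of all tested genes). The log2FC of 1 was met by 25 (78.1%, against 5.96%). The median was 1.11 beside the 1.44 of the mitosis genes, and the largest differences were those of Ccne2 (1.64) and Clspn (1.62). Pcna was the gene that did not pass (log2FC 0.26, edgeR adjusted p = 0.071). Their summed level was 3280 ± 126, 2960 ± 85.7 and 1520 ± 94.5 TPM in young TOM+, young TOM- and adult cells (SD, n = 3). The ratio of the mitosis sum to the S phase sum was 0.961, 1.04 and 1.19 in young TOM+ libraries 81, 91 and 92, 1.01, 1.07 and 1.21 in young TOM- libraries, and 0.905, 0.984 and 0.808 in adult libraries 91, 92 and 95. The ratio was highest in library 92 of each group, and adult library 92 lay above young TOM+ library 81, so that these 2 groups overlapped, whereas all young TOM- libraries lay above all adult libraries.

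TOM+ cDC2 and TOM- DC2 at 8 days were compared to ask whether cells of different ancestry differ in these genes at the same age. No member passed the padj in either direction, where 0.125% of all tested genes passed as higher in TOM+ and 1.47% as higher in TOM- cells. At an unadjusted p under 0.05 there were 2 members, Mybl2 (log2FC 0.33 ± 0.13 SE) and Incenp (0.29 ± 0.13 SE), and DESeq2 also passed 0. The fitted log2FC was above 0 for 53 members (0.00 after rounding for Ttk and Cdc25c) and below 0 for Ccnb1, Cenpf and Pttg1, with a median of 0.15, beside 0.00 for all tested genes. In TPM, all 3 TOM+ libraries lay above all 3 TOM- libraries for 9 members (16.1%), namely Ccna2, Plk1, Bub1, Aurkb, Incenp, Cenpm, Racgap1, Ncaph and Mybl2, against 5.0% of all tested genes, and below them for Pttg1 alone (1.79%, against 9.41%). Scaled as CPM, 6 members (against 7.36%) and 0 members (against 9.26%) were so separated. The 95% intervals of the differences reached from -0.19 to 0.57 for Birc5 and from -0.02 to 0.90 for Foxm1 on the log2 scale, which leaves differences of that size within the error of this fit.

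The young libraries were next treated as pairs by number and compared directly. This pairing is inferred from these data: same-numbered TOM+ and TOM- libraries deviated together from their group means over all genes. It is weakest for number 91, since TOM- library 91 correlated no less with TOM+ library 92 (r = 0.185) than with TOM+ library 91 (0.179). TOM+ cells were higher for 49, 43 and 51 of the 56 members in pairs 81, 91 and 92, against 51.2%, 49.2% and 49.1% of all tested genes, with median log2 differences of 0.13, 0.13 and 0.16, beside 0.01, 0.00 and 0.00 for all tested genes. A higher TOM+ level in each of the 3 pairs was found for 40 members, against 21.7% of all tested genes, and a lower one in each for Pttg1 alone, against 21.6%. With the library number as a block in the fit of all 9 libraries, 6 members passed the padj as higher in TOM+ cells, against 2.23% of all tested genes. They were Foxm1 (log2FC 0.44 ± 0.09 SE, edgeR adjusted p = 0.0071), Incenp (log2FC 0.29 ± 0.06 SE), Racgap1 (0.25 ± 0.05), Bub1 (0.27 ± 0.06), Spc24 (0.26 ± 0.07) and Top2a (0.18 ± 0.05), the last 5 with edgeR adjusted p of 0.0083, 0.011, 0.012, 0.034 and 0.041. With the block in a fit of the 6 young libraries alone, a choice made after seeing the data, 18 members passed as higher in TOM+ cells, against 5.12% of all tested genes. They were the same 6 and Cdk1, Ccna2, Plk1, Bub1b, Aurkb, Birc5, Cenpm, Kif11, Ncaph, Ube2c, Espl1 and Mybl2. In that fit Pttg1 passed as higher in TOM- cells (log2FC -0.21, edgeR adjusted p = 0.046), against 6.71%. The largest differences in these fits, those of Foxm1 and Mybl2, were 0.44 and 0.33 on the log2 scale beside age differences of 1.35 and 1.97 for the same genes. The fits with the block were not repeated without TOM- DC2 library 81, which held the erythroid and granulocyte transcripts.

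**Figure D4:**
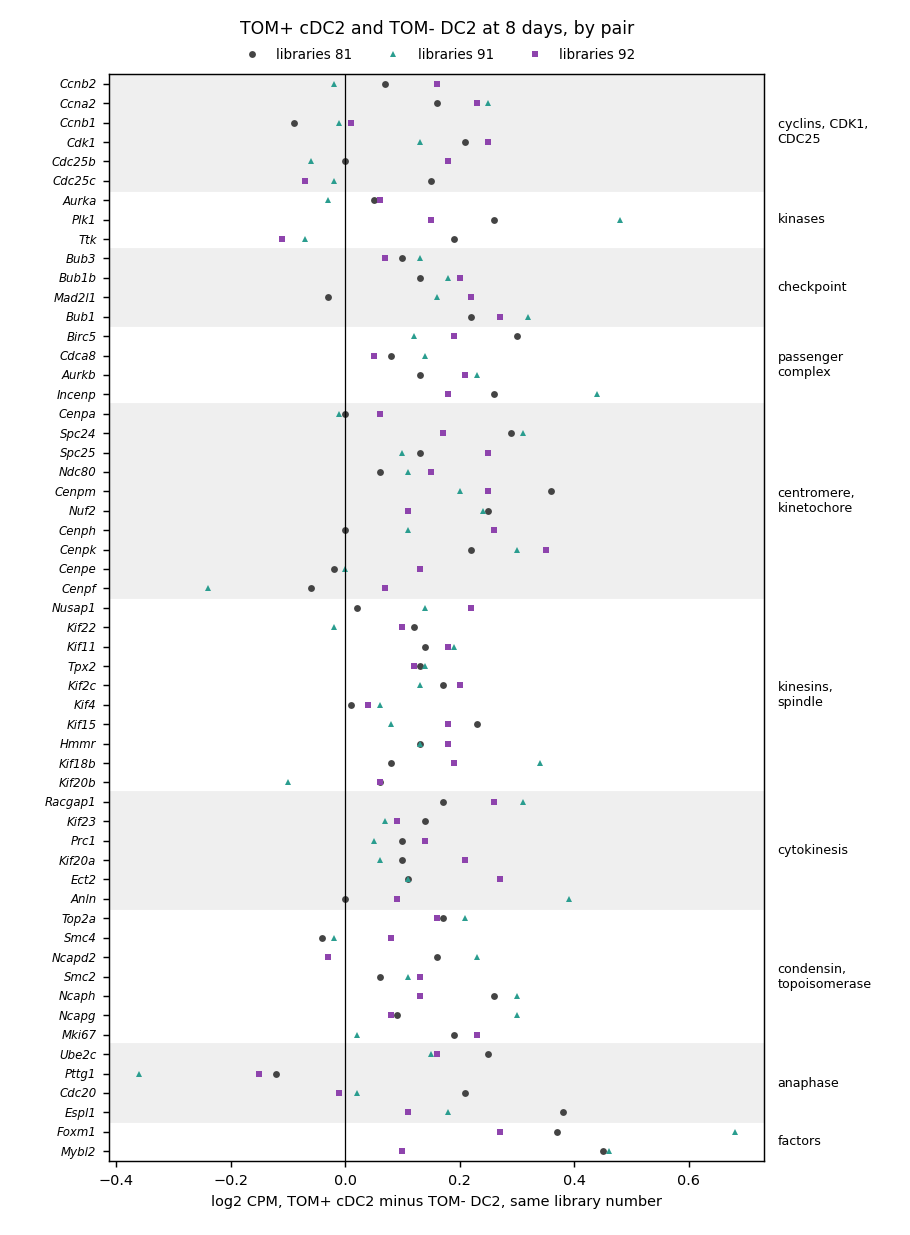
Difference in log2 CPM between TOM+ cDC2 and TOM- DC2 with the same library number (81 circles, 91 triangles, 92 squares) for each of the 56 genes in rows by role. Most points lie to the right of 0, those of Pttg1 lie to the left in all 3 pairs, and the points of Foxm1 reach 0.68.

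Between the young groups, all 32 S phase genes had a fitted log2FC above 0, with a median of 0.19, 11 had an unadjusted p under 0.05 and none passed the padj with edgeR. All TOM+ libraries lay above all TOM- libraries for 13 of them in TPM (40.6%, against 5.0% of all tested genes) and for 21 as CPM (65.6%, against 7.36%). The 10 ILC3 markers also separate these groups, with a summed level of 21.7 to 39.5 TPM in TOM+ and 72.5 to 116 TPM in TOM- cells, and the 8 macrophage markers summed to 363 to 394 TPM and 479 to 538 TPM. Whether cells with these transcripts account for any difference in the mitosis genes was not tested.

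Counting without strand leaves some members uncertain. Where a member overlaps another counted gene, reads from the shared stretch fall on no single gene and were left out of the counts. Exons of Ccna2, Cdc25b, Cdc25c, Plk1, Cdca8, Cenpk, Kif22, Kif4, Nusap1, Kif20a, Prc1, Ncapg, Cdc20 and Ube2c overlap a gene on the opposite strand, and those of Top2a, Ncapd2 and Foxm1 a gene on the same strand, in GENCODE M21. Pttg1, at chr11:43420250-43426251, and Bub3, Smc4 and Mybl2 overlap no other annotated exon. RSEM, which assigns reads to transcripts by likelihood, gave log2FC within 0.09 of those above for all 56 members in both age comparisons.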

How the data were processed

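The members and the other gene lists were chosen with earlier results of these data known. The authors aligned the single-end SMART-seq reads to mm10 with STAR, as named in the submitters' processing notes, and deposited STAR's count of reads per gene, not normalized, for each library. A file of RSEM estimates was deposited beside each, with expected counts, TPM and FPKM. STAR's unstranded count column was used, because the stranded columns each held 50.4% to 50.7% of it, and its summary lines for reads on no single gene (26.1% to 31.6% of reads) were left out of library sizes. Deposited TPM served for levels, rounded expected counts for an alternative, and the deposited FPKM were not used.

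Genes with a mean count of at least 1 were fitted over all 9 libraries in 3 groups with edgeR 4.0.16 (R 4.3.3), with TMM normalization (factors 0.894 to 1.08) and the quasi-likelihood F test, with Benjamini-Hochberg adjustment over all 14452 genes. A member passed at a padj under 0.05 and was called at a log2FC beyond 1 as well. SE was derived from the edgeR fit as the absolute log2FC divided by the square root of its F statistic. The 95% intervals were built from that SE with the t distribution, and no test was made over the list. The fits were tested on simulated data. Alternatives were DESeq2 1.42.0 with and without apeglm 1.24.0, RLE size factors, RSEM expected counts, limma 3.58.1 on log2(TPM + 1) and log2(TPM + 0.1), other filters, only the 2 groups compared, the library number as a block, and leaving out each library.

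The pairing of the young libraries by the numbers in the deposited names was inferred from these data. Deviations from the group means correlated at 0.5, 0.179 and 0.33 between same-numbered TOM+ and TOM- libraries, at -0.409 to 0.185 between differently numbered ones (0.185 for TOM+ 92 with TOM- 91), and at -0.002 to 0.041 between same-numbered young and adult libraries. No 2 libraries of a group were copies (chi-square per gene 8.74 or more, where counting noise gives about 1). Values per library were named, in each role, for the most abundant member and the one with the largest age difference, for members passing between the young groups, and for members of opposite sign; of other lists, for up to 3 genes in each direction, of which 1 is not reported here. Promoter sequences are RefSeq's on GRCm38.p6, and gene positions and overlaps are from GENCODE M21. Depth sets the precision: the members' counts ran from 41 to 7950 reads per library.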

Additional observations from a re-analysis of the deposited data

How the results depend on the processing

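Between young and adult TOM+ cDC2, over 19 alternatives, 54 or 55 members passed as higher at 8 days, Pttg1 passed as higher in adults, 48 to 53 members were called and the median log2FC was 1.30 to 1.61. Of 361 values for the 19 members with values per library, 360 kept their direction and side of the threshold, and the exception was Bub3 without young TOM+ library 92 (log2FC 0.25, edgeR adjusted p = 0.062). For young TOM- DC2 against adults, 54 or 55 passed, 42 to 51 were called and the median was 1.15 to 1.46. Between the young groups the number passing as higher in TOM+ was 0 in the main fit, 6 with the replicate block and 18 with the replicate block in the young libraries alone, where 1 passed as higher in TOM-, and 0 under the other 18 alternatives, and the median log2FC was 0.02, with apeglm's shrinkage, to 0.20. With the block, Bub3 also passed in young TOM- DC2 against adults (log2FC 0.22, edgeR adjusted p = 0.0082), no other member gained or lost the adjusted p in the age comparisons, and 50 and 45 members were called there. In this fit adult library 95 shares its number with no young library, and young libraries 81 share theirs with no adult. The age difference with the block therefore rests on adult libraries 91 and 92. Same-numbered young and adult libraries did not deviate together (r from -0.002 to 0.041), so the block is no separate check of the age differences. Leaving out single libraries gave 48 to 53, 42 to 50 and 0 called members in the 3 comparisons. What sequencing depth limits was not tested.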
